A study of Mus musculus with 9 samples.

Results

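Nicotinic acetylcholine receptors are channels of 5 subunits, and 8 of the genes that encode these subunits in neurons were followed here: Chrna3, Chrna4, Chrna5, Chrna6, Chrna7, Chrnb2, Chrnb3 and Chrnb4. They were taken by symbol from a table of 32695 genes, and all 8 were in it. In mice that carry VGAT-Cre, Ai14 and Pitx3-GFP, ventral midbrain cells had been sorted singly into plates and sequenced with SORT-seq, a plate form of CEL-seq2 that reads the 3′ ends of transcripts and counts molecules by barcode. Every animal carried these alleles, and the labels name no further treatment. Cells with tdTomato (tdT+) filled 4 plates at E16.5 and 3 plates at P0.5 (VGAT plates), and cells with tdTomato and GFP (tdT+/GFP+) filled 1 plate at each stage (VGAT+Pitx3 plates). In these mice Cre recombinase from the VGAT gene (Slc32a1, the vesicular transporter of GABA) turns on tdTomato for good, so tdTomato marks cells that have ever used VGAT, and GFP marks cells that express Pitx3, a transcription factor of midbrain dopamine neurons. Which animals went onto which plate is not given in the sources used here, so that p-values measure the spread between plates. Of 3455 wells, 2035 passed the limits of at least 2000 genes, at most 50000 counts and under 15% mitochondrial counts: 1026 and 434 tdT+ cells at E16.5 and P0.5, and 304 and 271 tdT+/GFP+ cells.

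Subunits of the α type carry the main face of the acetylcholine site and β subunits usually the other face, and the make-up of the channel sets how it responds to acetylcholine and nicotine. Receptors of α4 and β2 are the most widespread high-affinity type of the brain, while α6 and β3 are best known from dopamine neurons of the midbrain and their axons. The α5 and β3 subunits join such channels as accessory parts, α7 can form a channel alone, and α3 with β4 is typical of autonomic ganglia, the medial habenula and its target, the interpeduncular nucleus.

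The members share the loop that gives this channel family its name, which is shown here because it is what marks all 8 as one family. It is printed as coding sequence, 5′ to 3′ on the coding strand, from the GENCODE transcripts of GRCm38, and capitals mark the 2 cysteine codons that close the loop, 45 bases in all.
Chrna3: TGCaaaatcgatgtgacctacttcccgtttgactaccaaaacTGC
Chrna4: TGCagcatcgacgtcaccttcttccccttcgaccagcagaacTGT
Chrna5: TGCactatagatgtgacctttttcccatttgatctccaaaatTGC
Chrna6: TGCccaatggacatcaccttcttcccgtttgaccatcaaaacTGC
Chrna7: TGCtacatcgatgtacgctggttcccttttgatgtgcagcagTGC
Chrnb2: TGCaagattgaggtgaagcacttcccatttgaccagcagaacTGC
Chrnb3: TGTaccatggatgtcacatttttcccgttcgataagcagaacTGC
Chrnb4: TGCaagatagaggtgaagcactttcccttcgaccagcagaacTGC
The closest pair was Chrnb2 and Chrnb4, with 41 of 45 bases identical (91.1%), and the most distant pairs were Chrna7 with Chrna6 and Chrna7 with Chrnb4, with 26 of 45 (57.8%). Chrna6, one of the genes that set the sorted populations apart, was nearest in this stretch to Chrna3 (36 of 45, 80.0%).

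What divides the α from the β genes is a pair of adjacent cysteine codons at the acetylcholine site. The coding sequences of all 5 α members held 1 such pair and those of the 3 β members held 0, so that the pair (in capitals) is printed for the α members only.
Chrna3: atcaagtacaacTGCTGTgaggagatctac
Chrna4: aggaagtatgaaTGCTGTgccgagatctat
Chrna5: cggacggacagcTGCTGCtggtacccctgc
Chrna6: atcaagtacaacTGCTGTgaagagatttac
Chrna7: aagttctatgaaTGCTGCaaagagccatac

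Several members are neighbours in the genome. On GRCm38, Chrna6 (chr8:27403212-27413944, minus strand) and Chrnb3 (chr8:27368711-27399730, plus strand) lay 3481 bp apart with no annotated gene between them. Chrna5 (chr9:54980880-55007779, plus), Chrna3 (chr9:55010111-55026562, minus) and Chrnb4 (chr9:55028154-55048779, minus) stood in a row with gaps of 2331 and 1591 bp. Chrna4 (chr2:181018380-181043546, minus) stood alone. Chrna7 (chr7:63098692-63212569, minus) contained the gene model Gm44741 on its own strand, and Chrnb2 (chr3:89746195-89764632, minus) overlapped Adar on the opposite strand. Whether the counting used strand is not given in the sources used here, so reads of Chrnb2 and Adar in the overlap may not be separated.

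The kept cells of a plate gave 1435919 to 5408710 counts in all, with medians of 7042.7 to 33272.3 counts per cell, so that 3 counts correspond to 0.5547 to 2.0893 counts per 1000000 (CPM) of a plate. VGAT P0.5 replicate 1 held only 44 cells. Column names carry 2 labels per plate, which give different stages for 4 of the 9 plates. The first label was used, and it gives the same stage as the sample titles, which name a stage for every plate. Pitx3 was at 147 and 77.6 CPM on the VGAT+Pitx3 plates against at most 0.379 CPM on the others, which bears on the sort but not on the stage. The 8 dopamine neuron markers summed to 4700 and 6040 CPM on the VGAT+Pitx3 plates and to 113 to 169 CPM on VGAT plates. Of the GABA neuron markers, Gad2 (931 and 1040 CPM) and Slc32a1 (224 and 283 CPM) were present in tdT+/GFP+ cells, whereas Gad1, at 1050 ± 149 CPM (SD, n = 7) on VGAT plates, was at 14.4 and 10.3 CPM. The 4 markers of astrocytes and radial glia summed to 3.19 to 354 CPM on VGAT plates, highest on P0.5 replicate 2, and to 137 and 149 CPM on VGAT+Pitx3 plates. Markers of oligodendrocytes, microglia, endothelium, serotonin neurons and cholinergic neurons each summed to at most 52 CPM on any plate.

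Among the members, the largest differences between the sorted populations were in the α6 and β3 subunits. Chrna6 was at 0, 0.56, 0.38 and 1.18 CPM on the E16.5 VGAT plates and at 0, 0.55 and 0.29 CPM on the P0.5 VGAT plates, against 163.64 CPM in tdT+/GFP+ cells at E16.5 (exact Poisson 95% interval 152 to 176) and 236.40 CPM at P0.5 (217 to 257). Chrnb3 was at 0.25, 0, 0.19 and 0.20 CPM and at 0, 1.66 and 0.29 CPM on the same VGAT plates, against 234.32 CPM (220 to 249) and 238.63 CPM (219 to 260). The VGAT plates were at or near 0 for both genes and did not approach either VGAT+Pitx3 plate. In counts, 1257 of Chrna6 stood against 13, and 1576 of Chrnb3 against 7. The pooled CPM ratio was 384 for Chrna6 (95% interval 224 to 723) and 894 for Chrnb3 (433 to 2230). These intervals cover counting error only.

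Chrna4 and Chrnb2, which encode the α4 and β2 subunits, were present in both populations. Chrna4 measured 93.91, 81.94, 88.23 and 70.46 CPM on the E16.5 VGAT plates and 93, 92.14 and 83.13 CPM at P0.5, and 198.53 CPM (186 to 212) and 156.56 CPM (141 to 174) on the VGAT+Pitx3 plates of E16.5 and P0.5. The 7 VGAT plates lay close together, at 86.1 ± 8.37 CPM (SD), and below both other plates. Chrnb2 measured 46.34, 40.04, 41.65 and 34.94 CPM and 50.18, 41.38 and 36.33 CPM on VGAT plates, and 58.52 CPM (51.6 to 66.1) and 55.31 CPM (46.0 to 65.9) on VGAT+Pitx3 plates. Here the gap was small: the highest VGAT plate, P0.5 replicate 1, was within the counting interval of the P0.5 VGAT+Pitx3 plate.

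The remaining members overlapped between the populations. For Chrna3 (α3), the VGAT plates ranged from 10.4 to 22.4 CPM with a median of 15.2, and the VGAT+Pitx3 plates were at 23.86 CPM (19.5 to 28.9) and 12.93 CPM (8.66 to 18.6). For Chrna7 (α7), the range was 6.02 to 15.2 CPM with a median of 11.4, and the VGAT+Pitx3 plates were at 12.15 CPM (9.13 to 15.9) and 20.96 CPM (15.4 to 27.9). The 2 VGAT+Pitx3 plates were in opposite order for these genes, with the E16.5 plate higher in Chrna3 and the P0.5 plate higher in Chrna7. Chrna5, the accessory α5 subunit, was sparse in tdT+/GFP+ cells: against 0.987 to 9.01 CPM on VGAT plates, the E16.5 plate was within this range at 3.15 CPM and the P0.5 plate below it at 0.45 CPM, which is 1 count. Chrnb4 (β4) had 6 counts on all 9 plates together, 5 of them on VGAT plates, and was not tested.

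**Figure D1:**
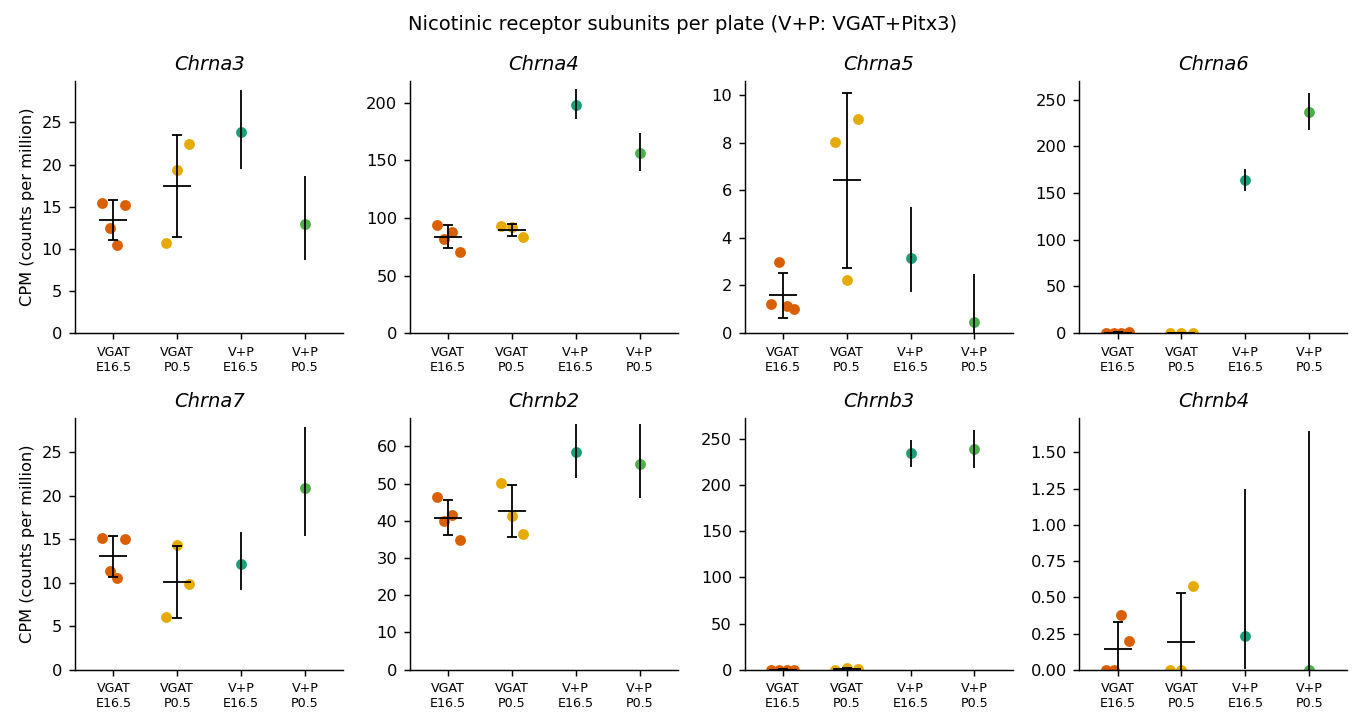
Counts per 1000000 (CPM) of each nicotinic receptor subunit on each of the 9 plates, with points for plates, horizontal lines and whiskers for the mean and SD of the VGAT groups (4 and 3 plates), and vertical lines on the single VGAT+Pitx3 (V+P) plates for exact Poisson 95% intervals. Axes differ between panels. Chrna6 and Chrnb3 lie at or near 0 on the 7 VGAT plates and between 163.64 and 238.63 CPM on the V+P plates, and the VGAT+Pitx3 plates of Chrna4 and Chrnb2 lie above all VGAT plates.

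The question of the first comparison was which subunits distinguish cells with a VGAT history and Pitx3-GFP from the rest of the VGAT lineage. In the edgeR quasi-likelihood test with stage as a covariate and Benjamini-Hochberg adjustment, 3 of the 7 members tested were higher in tdT+/GFP+ cells and 0 were lower, where 4.73% of all 14624 genes tested were called higher, 4.2% lower and 8.93% in either direction. Chrnb3 rose by 9.60 on the log2 scale (SE 0.27, adjusted p = 2.37e-11) and Chrna6 by 8.47 (SE 0.26, adjusted p = 4.53e-11), values that depend on the prior count because VGAT plates were near 0. Both genes, with 7 and 13 counts on VGAT plates, passed the filter on low counts only through the VGAT+Pitx3 plates. Their direction was thus fixed by the filter, and their calls are a description rather than a test. The members were also chosen with earlier results of these data known. Chrna4 rose by 1.06 (SE 0.13, adjusted p = 6.64e-05), a 2.08-fold difference. Chrnb2 was 1.38 times as high (log2 0.47, SE 0.15) but missed the threshold in edgeR (adjusted p = 0.0701). It passed without the upper limit on counts per well (0.48, adjusted p = 0.036) and without VGAT P0.5 replicate 1 (0.52, adjusted p = 0.036). Chrna7 (0.42, SE 0.30), Chrna3 (0.35, SE 0.29) and Chrna5 (−0.38, SE 0.80) had edgeR adjusted p of 0.548, 0.63 and 0.887.

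The median log2 difference of the 7 members tested was 0.47, beside −0.00068 over all genes tested. This median includes Chrna6 and Chrnb3, whose direction was fixed by the filter. Both VGAT+Pitx3 plates stood above every VGAT plate in 4 of 8 members (Chrna4, Chrna6, Chrnb2 and Chrnb3), as they did in 7.15% of the 19629 genes with at least 10 counts. The dopamine neuron markers moved with this comparison, as did Slc17a6, the vesicular glutamate transporter gene, at 4.01 ± 5.36 CPM (SD, n = 7) against 106 and 205 CPM, and their part in the result was not tested. In sums over a plate, fewer cells of a type and less RNA per cell cannot be told apart.

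**Figure D2:**
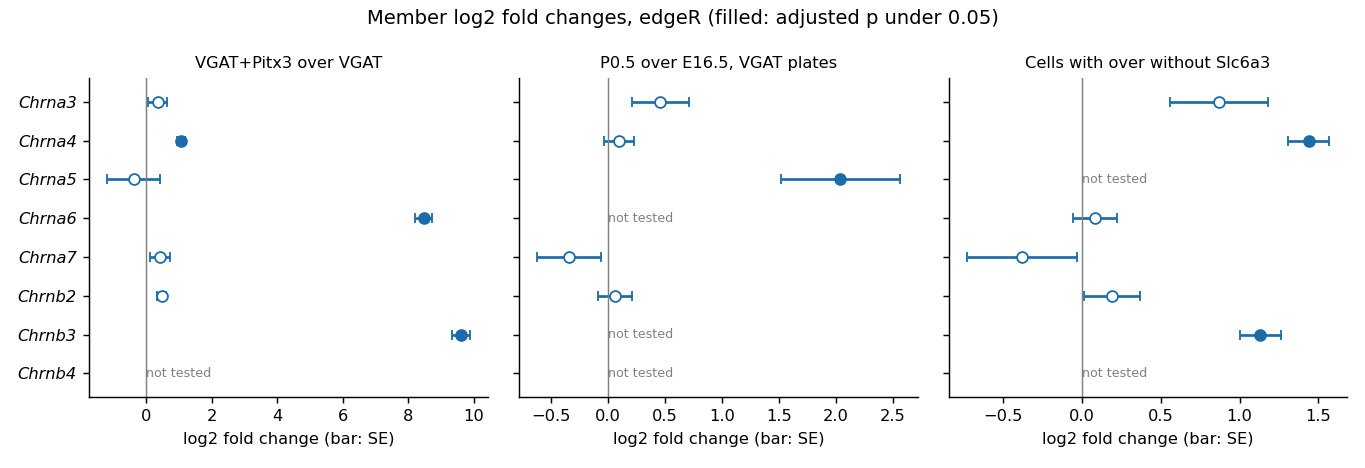
Log2 fold change of each member in the edgeR fits of population (9 plates), stage (7 VGAT plates) and Slc6a3 (4 sums of cells from 2 VGAT+Pitx3 plates), with bars for the standard error and filled points for an adjusted p under 0.05 over all genes. Chrna4 and Chrnb3 are filled in the first and last panels, Chrna6 in the first and Chrna5 in the middle panel, and the horizontal scales differ.

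Single cells showed how these levels were spread. To compare cells of unequal depth, each cell was thinned to 4000 counts, which left 1956 cells and set aside 79 shallower ones. Chrna6 was then found in 34.11% of tdT+/GFP+ cells at E16.5 (exact binomial 95% interval 28.75 to 39.79) and in 47.79% at P0.5 (41.44 to 54.19), against 0.06266% ± 0.1658 (SD, n = 7) of VGAT cells. Chrnb3 was found in 38.8% (33.24 to 44.58) and 44.98% (38.69 to 51.39), against 0.1473% ± 0.3897. Chrna4 was found in 39.46% (33.89 to 45.25) and 37.75% (31.71 to 44.09), against 20.71 to 27.84% on VGAT plates, so these did not overlap at this depth. At 2000 counts per cell they did, since the P0.5 plate was at 17.34% and VGAT plates at 9.091 to 18.13%. Chrnb2 was found in 22.07% and 19.28%, inside the VGAT range of 11.24 to 23.26%. Without thinning, Chrna4 was found in 66.45% and 46.49% of tdT+/GFP+ cells, and in 58.25% of VGAT cells on average, so the order of these shares depended on depth.

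At 4000 counts per cell, none of the 8 members was found in 19.06% and 16.47% of tdT+/GFP+ cells at E16.5 and P0.5, against 57.05% ± 3.714 (SD, n = 7) of VGAT cells. At least 1 of Chrna6 and Chrnb3 was found in 58.86% (53.05 to 64.5) and 65.06% (58.79 to 70.97), and both in 14.05% (10.31 to 18.51) and 27.71% (22.25 to 33.71). The 7 VGAT plates held no thinned cell with both. Chrna4 together with Chrnb2 was found in 8.696% and 9.639% of tdT+/GFP+ cells and in 4.888% ± 3.284 of VGAT cells, where 1 VGAT plate reached 11.63%. All of Chrna4, Chrna6, Chrnb2 and Chrnb3 were counted in 6 cells at E16.5 (2.007%) and 8 cells at P0.5 (3.213%). At full depth, 11 VGAT cells held Chrna6 and 6 held Chrnb3; 1 of the former and 0 of the latter also held a count of Slc6a3, Pitx3 or Th.

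Whether Chrna6 and Chrnb3 occurred in the same tdT+/GFP+ cells differed between the plates. At P0.5, Chrnb3 was found in 57.98% (48.59 to 66.97) of cells with Chrna6 and in 33.08% (25.08 to 41.87) of cells without it. At E16.5, the shares were 41.18% (31.52 to 51.36) and 37.56% (30.78 to 44.73), and the intervals overlapped. Chrna4 and Chrnb3 showed the opposite order of plates: Chrna4 was found in 50.0% (40.57 to 59.43) of cells with Chrnb3 against 32.79% (26.04 to 40.1) without at E16.5, and in 37.5% against 37.96% at P0.5. With 1 plate per stage, neither difference was tested.

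Within the VGAT+Pitx3 plates, cells were divided by Slc6a3, the dopamine transporter gene and a marker of mature dopamine neurons. The median thinned Slc6a3 count was 0 on both plates, so the division was between cells without Slc6a3 (155 at E16.5 and 138 at P0.5) and cells with at least 1 count (144 and 111). From cells without to cells with Slc6a3, Chrna4 went from 98.22 to 272.4 CPM at E16.5 and from 88.09 to 231.49 CPM at P0.5. Chrnb3 measured 132.36 and 306.91 CPM at E16.5, and 154.57 and 315.67 CPM at P0.5. The plates had the same order of classes in both genes. Chrna6, in contrast, went from 167.91 to 147.77 CPM at E16.5 and from 198.61 to 258.28 CPM at P0.5. Thus cells without Slc6a3 held Chrna6 at a level near that of cells with it on the E16.5 plate.

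In the edgeR test with the plate as a block, 2 of the 6 members tested were higher in cells with Slc6a3 and 0 lower, where 3.51% of 11454 genes were called higher, 5.04% lower and 8.55% in either direction. Chrna4 rose by 1.44 on the log2 scale (SE 0.13, adjusted p = 8.77e-07) and Chrnb3 by 1.13 (SE 0.13, adjusted p = 8.73e-06). Chrna6 did not pass in this edgeR fit (0.08, SE 0.14, adjusted p = 0.855). Chrna3, with 14.5 and 29.64 CPM at E16.5 and 10.8 and 15.31 CPM at P0.5, had a log2 difference of 0.87 (SE 0.31, edgeR adjusted p = 0.109). Chrnb2 went from 55.19 to 57.24 CPM and from 47.37 to 63.13 CPM (edgeR adjusted p = 0.661), and Chrna7 from 15.43 to 8.53 CPM and from 19.94 to 22.0 CPM (adjusted p = 0.654). Chrna5 had 1 and 13 counts at E16.5 and 1 and 0 at P0.5, and neither it nor Chrnb4 was tested. The members' median was 0.53, beside −0.0015 over all genes tested. This fit has 1 residual degree of freedom before edgeR shares information across genes, and the 4 sums come from 2 plates.

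Other markers moved with this division, and their part was not tested. Th rose by 3.22 on the log2 scale (edgeR adjusted p = 5.66e-10) and Aldh1a1 by 4.87 (adjusted p = 5.37e-10), while Gad2 fell by 2.91 (adjusted p = 8.42e-09), Slc32a1 by 1.53 (adjusted p = 2.77e-07), Slc17a6 by 2.22 (adjusted p = 1.64e-07) and the radial glia marker Fabp7 by 0.91 (adjusted p = 0.00962). The other markers of astrocytes and radial glia did not follow Fabp7. In edgeR, Slc1a3 (0.20, adjusted p = 0.792), Aqp4 (0.58, adjusted p = 0.62) and Aldh1l1 (−0.03, adjusted p = 0.989) were not called. The third GABA neuron marker, Gad1, was low in both classes and did not pass (0.84, edgeR adjusted p = 0.535). Of the other dopamine neuron markers, Pitx3, Slc18a2, Ddc and En1 passed with rises of 0.54 to 1.77. Nr4a2 did not pass (0.13, edgeR adjusted p = 0.635). Cells with Slc6a3 were also deeper before thinning, with medians of 16542 against 13879 counts at E16.5 and 8897.9 against 8270.9 at P0.5.

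In finer steps of Slc6a3, leaving out the 1 cell (at P0.5) with more than 19 counts, the shares of cells with Chrna4 and Chrnb3 followed the Slc6a3 count on both plates. At E16.5, Chrna4 was found in 25.16%, 45.0% and 67.19% of cells with 0, 1 to 4 and 5 to 19 thinned counts of Slc6a3, and at P0.5 in 28.26%, 40.68% and 58.82%. Chrnb3 was found in 23.23%, 51.25% and 60.94% at E16.5, and in 34.06%, 55.93% and 62.75% at P0.5. Chrna6 was found in 31.61%, 40.0% and 32.81% at E16.5, but in 37.68%, 54.24% and 68.63% at P0.5, so only the P0.5 plate showed an order for it. Chrnb2 showed none that both plates shared, with shares between 15.22% and 25.42% in these 6 bins.

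**Figure D3:**
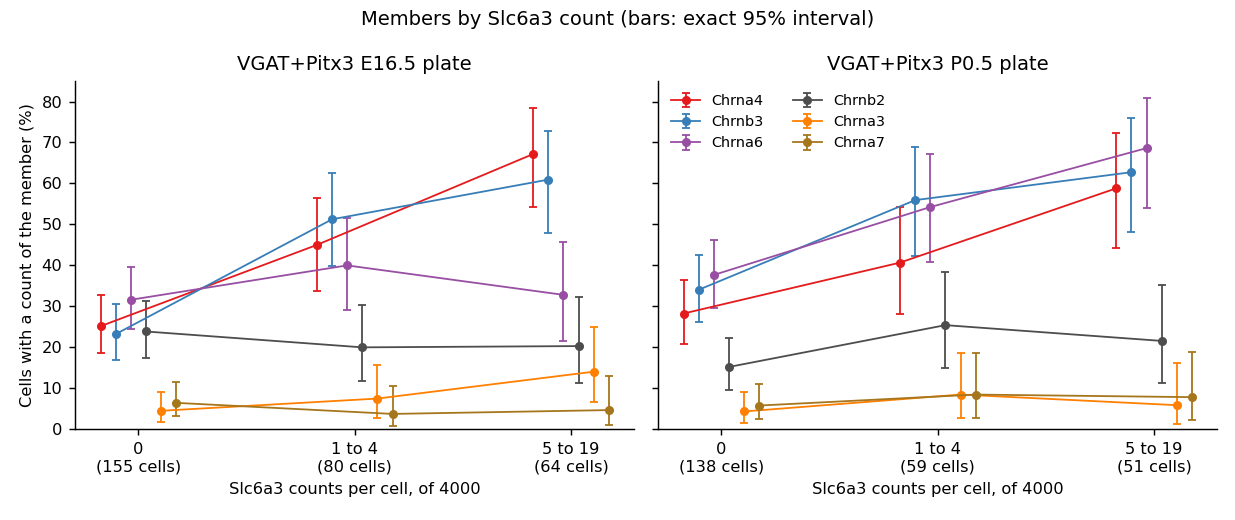
Share of tdT+/GFP+ cells with at least 1 count of a member, in percent, by the Slc6a3 count of the cell after thinning to 4000 counts, for the E16.5 plate (left) and the P0.5 plate (right), with bars for exact binomial 95% intervals and lines joining the bins of a gene. Without the 1 cell above 19 counts, at P0.5, which is not drawn, Chrna4 and Chrnb3 are higher in each further bin on both plates, whereas Chrna6 is at 31.61%, 40.0% and 32.81% at E16.5.

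Between stages, only Chrna5 passed the test on VGAT plates. Chrna5 was at 1.23, 2.98, 1.14 and 0.99 CPM at E16.5 and at 8.03, 2.21 and 9.01 CPM at P0.5. The groups overlapped, since P0.5 replicate 2 was below E16.5 replicate 2. In edgeR, 1 of the 5 members tested was higher at P0.5 and 0 were lower, where 2.84% of 13639 genes were called higher, 1.74% lower and 4.58% in either direction. Chrna5 rose by 2.04 on the log2 scale (SE 0.52, adjusted p = 0.0444), a 4.1-fold difference that rests on 32 counts at E16.5 and 47 at P0.5. On P0.5 replicate 1, the 12 counts came from 5 cells, and the highest of these cells held 6. The call was lost when any single VGAT plate other than P0.5 replicate 2 was left out: without E16.5 replicate 2 Chrna5 did not pass the filter on low counts, and in the other 5 fits the edgeR adjusted p was 0.0801 to 0.212 with log2 differences of 1.62 to 1.94. It was also lost without the upper limit on counts per well (1.87, edgeR adjusted p = 0.0571). Of the marker genes, Fabp7 (4.03, edgeR adjusted p = 0.0403) and Slc32a1 (0.61, adjusted p = 0.0367) were also higher at P0.5. Fabp7 was at 5.03 ± 2.15 CPM (SD, n = 4) at E16.5 and 85.2 ± 137 CPM (n = 3) at P0.5. The markers of astrocytes and radial glia, Fabp7 among them, summed to 354 CPM on P0.5 replicate 2. They summed to 9.37 and 7.56 CPM on the other P0.5 plates, so the Fabp7 rise rested on 1 plate. The second column label, unlike the first and the sample titles, gives another stage for 4 plates. The part of the markers or of this label in the result was not tested.

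The other members measured much the same at both stages. Chrna4 was at 83.6 ± 10.0 CPM (SD, n = 4) at E16.5 and 89.4 ± 5.47 CPM (n = 3) at P0.5, and Chrnb2 at 40.7 ± 4.7 and 42.6 ± 7.01 CPM. Chrna3 was at 13.4 ± 2.39 and 17.5 ± 6.05 CPM, and Chrna7 at 13.0 ± 2.4 and 10.1 ± 4.17 CPM. Their groups of plates overlapped, and the edgeR adjusted p was 0.656, 0.856, 0.283 and 0.495 in that order. Chrna6, Chrnb3 and Chrnb4 were too low on VGAT plates to be tested. The median over the 5 members tested was 0.10, beside 0.016 over all genes.

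Chrna5 counts on VGAT plates lay in large part in cells with Pax7, a transcription factor gene found in rostral cells of the interpeduncular nucleus. At full depth, 43 of 79 Chrna5 counts (54.43%) were in the 86 of 1460 cells (5.89%) that held a Pax7 count. By plate, 0 of 5, 7 of 16, 0 of 6 and 0 of 5 Chrna5 counts were in cells with Pax7 at E16.5, and 7 of 12, 0 of 4 and 29 of 31 at P0.5. The share of cells with Pax7 was 5.26%, 7.02%, 1.32% and 0.656% at E16.5 and 6.82%, 6.85% and 21.1% at P0.5, so the plate with the most Chrna5 was also the plate with the most cells with Pax7. Outside these cells Chrna5 was at 1.32, 1.81, 1.13 and 0.989 CPM and at 3.66, 2.38 and 0.726 CPM. When cells with Pax7 were left out of the comparison of stages, Chrna5 did not pass the filter on low counts.

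**Figure D4:**
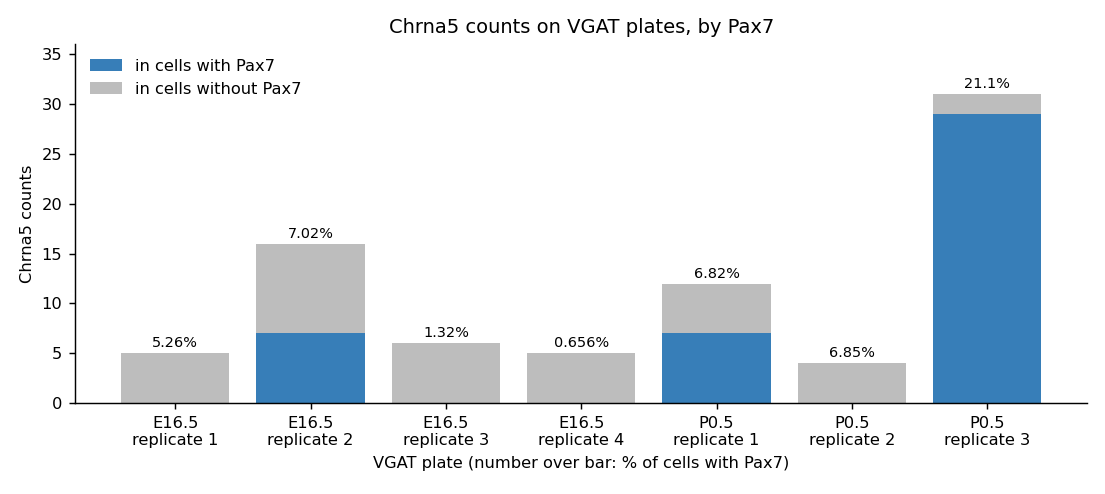
Chrna5 counts on each of the 7 VGAT plates, divided into counts in cells with at least 1 Pax7 count (blue) and in the other cells (grey), with the percent of cells that held Pax7 above each bar. On P0.5 replicate 3, where 21.1% of cells held Pax7, 29 of 31 Chrna5 counts were in those cells, and on 4 of the 7 plates none were.

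Whether the stages differed otherwise in tdT+/GFP+ than in tdT+ cells was asked with an interaction term. No gene of 15724 passed in edgeR (0% called), with 998 at an unadjusted p under 0.05, and DESeq2 called 14, none of them a member. The largest member values were −4.75 for Chrna5 (SE 1.5), −1.74 for Chrnb3 (SE 1.0), 1.36 for Chrna6 (SE 1.1), −1.33 for Chrna3 (SE 0.51) and 1.13 for Chrna7 (SE 0.52) on the log2 scale, with edgeR adjusted p of 0.773 to 0.833. With 1 VGAT+Pitx3 plate per stage, that plate was assumed to vary like VGAT plates.

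Across GABA neuron types, VGAT cells with and without a thinned count of each of 10 marker genes were compared within plates: Six3, Pax5, Otx2, Nkx2-2, Dlx1, Tac1, Onecut2, Tcf7l2, Lamp5 and Pax7. A cell can carry several of them. Of 45 pairs of a member and a marker tested in edgeR, 2 were called, Chrna4 with Six3 and Chrna5 with Pax7, where 2.61% of all pairs of a gene and a marker were called. The direction of Chrna5 with Pax7 was fixed by the filter on low counts, as given below.

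Chrna4 was higher in cells with Six3, a transcription factor gene of GABA neurons of the substantia nigra pars reticulata. Cells with Six3 were at 109.96, 105.95, 107.59 and 100.73 CPM on the E16.5 plates and at 104.6, 121.7 and 99.57 CPM on the P0.5 plates. Cells without Six3 were at 79.24, 72.28, 76.17 and 61.84 CPM and at 88.54, 69.9 and 77.55 CPM. The difference had the same direction on 7 of 7 plates, and the 2 sets of plate values did not overlap. Over 533 cells with and 875 cells without Six3, Chrna4 rose by 0.52 on the log2 scale (SE 0.076, edgeR adjusted p = 0.000781), from 75.1 ± 8.32 to 107 ± 7.38 CPM (SD, n = 7), where 1.26% of 12953 genes were called higher and 2.51% in either direction. Of the marker genes tested with Six3, En1 (−1.83, edgeR adjusted p = 0.00113) and Ddc (−0.92, adjusted p = 0.016) were lower, and their part was not tested. Chrnb2, at 41.9 ± 7.9 CPM without and 41.7 ± 6.66 CPM with Six3, had a log2 difference of −0.01 (SE 0.11, edgeR adjusted p = 1). For Pax5, which also marks cells of that nucleus, the Chrna4 difference did not pass (−0.33, SE 0.16, edgeR adjusted p = 0.338). The plates gave no common direction, as Chrna4 was higher with Pax5 on 3 of 7. It was at 82.0 ± 32.1 CPM (SD, n = 7) with and 89.6 ± 7.76 CPM without Pax5.

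For Pax7, 4 plates had enough cells, with 46 thinned cells with Pax7 in all and 30 Chrna5 counts in them. Chrna5 was at 0, 28.77, 0 and 73.76 CPM in cells with Pax7 on E16.5 replicates 1 and 2 and P0.5 replicates 2 and 3, and at 1.31, 2.01, 2.55 and 2.36 CPM in cells without it. Only 2 of these 4 plates were thus higher with Pax7. In edgeR, Chrna5 rose by 3.78 on the log2 scale (SE 0.73, adjusted p = 0.00113), where 1.03% of 11226 genes were called higher and 2.27% in either direction. Without E16.5 replicate 2 or without P0.5 replicate 3, Chrna5 no longer passed the filter on low counts. It thus entered the fit only through the cells with Pax7 on these 2 plates. Its direction was fixed by that filter, so the call is a description rather than a test. Ddc (−3.20, edgeR adjusted p = 0.0166), Nr4a2 (−2.95, adjusted p = 0.000771) and Fabp7 (−2.65, adjusted p = 0.0381) were lower with Pax7, and their part was not tested. Of the other markers of astrocytes and radial glia, Slc1a3 (0.32, edgeR adjusted p = 0.969) and Aldh1l1 (−0.89, adjusted p = 0.941) were not called. Chrnb2 was higher with Pax7 on 4 of 4 plates, at 85.04, 81.52, 80.44 and 52.24 CPM against 47.13, 39.85, 38.95 and 36.35 CPM, but missed the threshold (0.82, SE 0.29, edgeR adjusted p = 0.17). Chrna4 was at 106.3, 28.77, 0 and 39.95 CPM with and 97.4, 87.34, 103.45 and 91.89 CPM without Pax7 (−1.13, SE 0.34, edgeR adjusted p = 0.0715).

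**Figure D5:**
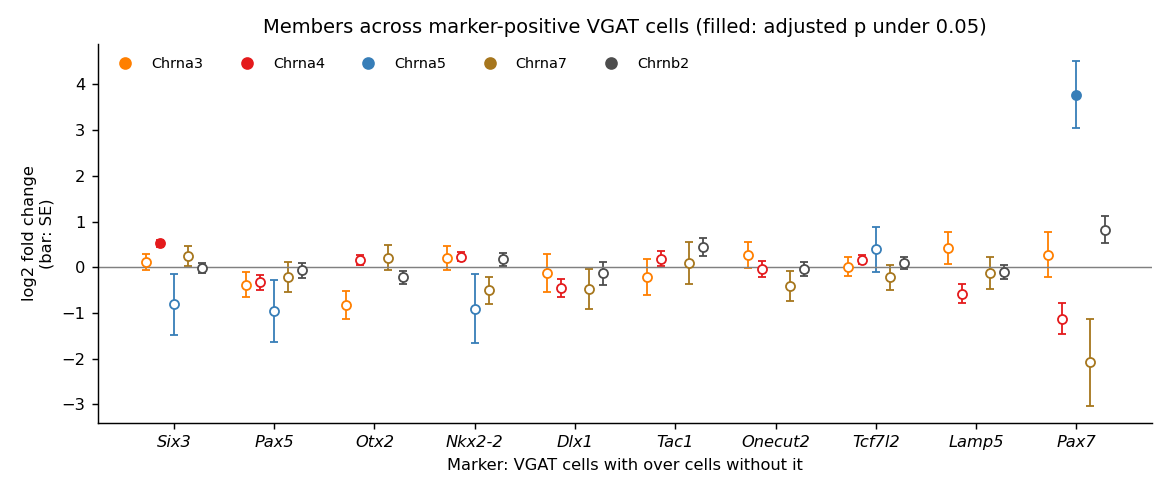
Log2 fold change of 5 members between VGAT cells with and without each of 10 marker genes, from edgeR with the plate as a block, with bars for the standard error and filled points for an adjusted p under 0.05; members that did not pass the filter on low counts have no point. The 2 filled points are Chrna4 in cells with Six3 (0.52) and Chrna5 in cells with Pax7 (3.78).

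Pairs of members on VGAT plates were also compared for co-detection. In 6 pairs of Chrna3, Chrna4, Chrna7 and Chrnb2, the share of cells with one member was compared between cells with and without the other, and 0 pairs passed the exact sign-flip permutation test over plates (two-sided, lowest adjusted p = 0.8438). The smallest p that this test allows is 0.01562 with 7 plates and 0.03125 with 6, so that after adjustment over 6 pairs a single pair could not have passed, and the absence of calls was close to fixed by the design. Chrna4 was found in 28.62% of cells with Chrnb2 and in 23.17% of cells without it, a difference of 5.457 percentage points ± 12.29 (SD over 7 plates) with the same sign on 6 of 7 plates (exact permutation p = 0.2656). The other 5 pairs had 6 plates each and differences of −4.148 to 3.533 points. At a depth of 8000 counts per cell, the difference for Chrna4 and Chrnb2 was −5.246 points, positive on 1 of 7 plates (exact permutation p = 0.09375), so its sign depended on the depth.

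The genes whose counts ran most like a member were taken by the mean correlation of log counts across thinned cells within plates, as a description over cells that share a library. In 548 tdT+/GFP+ cells and among 6266 genes, Chrna4 was most like Slc6a3 (mean r = 0.3502), Tmem255a (0.3455) and Nwd2 (0.3148), and Chrnb3 was most like Galntl6 (0.3071), Slc6a3 (0.2942) and Dcc (0.2627). Chrna6 ran with other genes, namely Cadm1 (0.3291), Scg2 (0.327) and Mcc (0.3056). Its mean r was 0.07865 with Slc6a3, 0.1332 with Chrnb3 and −0.08861 with Chrna4. Between the 2 plates, r of Chrna6 ran from −0.004656 to 0.162 with Slc6a3 and from 0.07412 to 0.1922 with Chrnb3. With Chrna4 it ran from −0.1239 to −0.0533. For Chrnb2, the values were low throughout, with Rsu1 (0.1671), Sap18 (0.1639) and Os9 (0.1511) at the top. In 1408 VGAT cells, over 5394 genes, Chrna4 was most like Ptpn5 (0.1313), Rapgefl1 (0.1212) and Six3 (0.121), and Chrnb2 like Faim (0.1233), Ilk (0.1206) and Mcl1 (0.1142). These means hid a wide spread between the 7 plates. For Chrna4, r ran from 0.0092 to 0.3622 with Ptpn5, −0.007561 to 0.3779 with Rapgefl1 and 0.03728 to 0.2256 with Six3. For Chrnb2, it ran from −0.04184 to 0.5225 with Faim, 0.01962 to 0.1909 with Ilk and −0.02273 to 0.4155 with Mcl1.

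The kind of reads behind a member's counts differed between genes. Of Chrna7 counts, 96.6% on VGAT plates and 99.01% on VGAT+Pitx3 plates were intronic, against 26.16% and 25.23% over all genes, so that the Chrna7 values here rest almost wholly on intronic reads and may include the gene model inside it. Chrna4 (2.099% and 1.46%), Chrnb2 (0.9292% and 0.2604%) and Chrna6 in tdT+/GFP+ cells (0.8751%) rested on exonic reads. Chrnb3 was 6.47% intronic in tdT+/GFP+ cells, and 5 of its 7 counts on VGAT plates were intronic.

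Other genes of the nicotinic system were read from fixed lists. Of 8 further subunit genes, 7 were in the tables and only Chrna2, which encodes the α2 subunit, was high enough on the plates to be tested between populations. On VGAT plates Chrna2 was at 0.49, 5.4, 0.19 and 0 CPM at E16.5 and at 2.68, 2.21 and 24.12 CPM at P0.5, and it had 1 count on each VGAT+Pitx3 plate (log2 −3.76, edgeR adjusted p = 0.273). Like Chrna5, it was highest on P0.5 replicate 3. In cells with Pax7, Chrna2 was at 10.63, 124.68, 32.18 and 169.03 CPM against 0.26, 0.60, 1.28 and 9.42 CPM in cells without, and rose by 5.17 on the log2 scale (SE 0.52, edgeR adjusted p = 9.43e-09). It passed the filter on low counts through its sums in cells with Pax7, so the direction of this call was largely fixed in advance. The cells with Pax7 held 26 and 55 Chrna2 counts on E16.5 replicate 2 and P0.5 replicate 3. They held only 1 count in 5 cells on E16.5 replicate 1 and 2 counts in 8 cells on P0.5 replicate 2.

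Of 9 genes for assembly and binding partners of the receptors, 8 were tested between populations, 0 were higher and 2 were lower in tdT+/GFP+ cells, where 4.73% and 4.2% of all genes tested were called. Lypd1, whose protein binds nicotinic receptors and damps them, was at 81.6 to 137 CPM on VGAT plates and at 51.32 and 63.78 CPM in tdT+/GFP+ cells, and fell by 1.00 on the log2 scale (edgeR adjusted p = 0.00272). Lypd6, of the same protein family, was at 11.4 to 31.1 CPM against 8.33 and 6.69 CPM and fell by 1.51 (edgeR adjusted p = 0.00253). The receptor chaperone genes Tmem35a (−0.02, adjusted p = 0.975) and Ric3 (0.14, adjusted p = 0.713) were not called in edgeR. Among VGAT cells, Lypd6b (1.45, edgeR adjusted p = 3.17e-05) and Lypd6 (1.12, adjusted p = 0.0025) were higher in cells with Otx2, where 6.88% of genes were called. Lypd6b was lower with Pax5 (−1.17, edgeR adjusted p = 0.00407), Lypd6 with Nkx2-2 (−1.0, adjusted p = 0.0107) and Lypd1 with Tac1 (−1.27, adjusted p = 0.0025), where 4.85%, 2.7% and 1.78% of genes were called. In the comparison between populations, both Lypd1 and Lypd6 missed the threshold without the E16.5 VGAT+Pitx3 plate (edgeR adjusted p = 0.109 and 0.157).

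Of 7 genes for acetylcholine synthesis, transport and breakdown, 3 were tested and 2 were higher in tdT+/GFP+ cells, where 4.73% of all genes were. Prima1, which anchors acetylcholinesterase in the membrane, was at 0 to 1.45 CPM on VGAT plates and at 15.31 and 15.61 CPM in tdT+/GFP+ cells, and rose by 4.22 on the log2 scale (edgeR adjusted p = 1.65e-05). Slc5a7, the choline transporter gene, was at 0.592 to 2.76 CPM against 3.83 and 4.01 CPM (1.74, edgeR adjusted p = 0.0448) and passed in 4 of 16 alternative settings only. On VGAT plates alone neither Prima1 nor Slc5a7 passed the filter on low counts, so the direction of both calls was largely fixed in advance. Chat, which makes acetylcholine, was at 0 on both VGAT+Pitx3 plates. Between stages on VGAT plates, Ache, which encodes acetylcholinesterase, rose by 1.72 (edgeR adjusted p = 0.00634), from 44.4 ± 9.52 CPM (SD, n = 4) to 147 ± 57.4 CPM (n = 3). The genes of 2 receptor-binding proteins also rose with stage in edgeR, Ly6h by 0.80 (adjusted p = 0.0158) and Lynx1 by 1.55 (adjusted p = 0.0367), and both lost the call when single plates were left out. Ache was also higher in VGAT cells with Nkx2-2 (0.53, edgeR adjusted p = 0.0119) and with Tcf7l2 (0.50, adjusted p = 0.0377), the latter where 1.38% of genes were called. In tdT+/GFP+ cells with Slc6a3, Lynx1 fell by 2.30 (edgeR adjusted p = 0.013) and Prima1 rose by 1.15 (adjusted p = 0.0489). Both calls were lost without the plate block (edgeR adjusted p = 0.414 for Lynx1 and 0.287 for Prima1). That of Prima1 was also lost with DESeq2 (adjusted p = 0.99) and between the cells lowest and highest in Slc6a3 (edgeR adjusted p = 0.0993).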

How the data were processed

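The deposited values were expected counts of exonic and intronic reads together, per gene and well. The authors sorted single cells, prepared SORT-seq libraries, aligned reads (STAR and mm10 in the submitters' processing notes) and counted molecular barcodes, corrected for molecules sharing one. The deposited counts matched that correction for 6-base barcodes within 0.001 in 100% of non-zero values, and 51.7% of these were not whole. Sums over cells were rounded before testing.

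Wells were kept by the limits stated above. Entries of ERCC spike-ins (92) and the mitochondrial genome (34) were dropped after that. Counts were summed per plate, or per plate and cell class with at least 5 cells per class. The sums were filtered with filterByExpr, scaled by TMM and fitted with the quasi-likelihood test of edgeR 4.0.16 under R 4.3.3, and p-values were adjusted over all genes (Benjamini-Hochberg, threshold 0.05). CPM are TMM-scaled. DESeq2 1.42.0 was an alternative. Python 3.11.15, numpy 2.4.6, scipy 1.17.1 and pandas 2.3.3 gave the shares, exact intervals and sign-flip tests. The fits of population, stage, interaction, Slc6a3, Six3 and Pax7 and the sign-flip test were also run on simulated data. The fits of the other markers were not. Doublets were not called; leaving out cells above 2 times the median count of their plate was an alternative.

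Named genes were the 8 members, the 3 genes most like each member found in at least 10% of thinned cells on every plate of its population, and list genes with their counts. The members and lists were chosen with earlier results of these data known. Of the lists, Chrnd was not analysed here. Positions and coding sequences came from the GENCODE annotation of GRCm38, the assembly that mm10 names, and protein sequences were not used here. The 383 well barcodes present on all 9 plates are positions of the plate design, not shared cells. Alternatives were spliced counts, RLE factors, omission of the low-count filter, 3000 genes per well, no upper limit, other depths and splits, no plate block, a replicate block and each plate left out.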

Additional observations from a re-analysis of the deposited data

Results flagged for a closer look

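In groups of 4 to 7 VGAT plates, 46 sets of member values were tested for a plate far from the others, and 7 stood out. Chance alone flags about 1 in 20 groups of values that vary freely. That rate does not hold for shares that are 0 on all plates but 1, which are always flagged. The 7 flags thus cannot be set against it. Chrna5 was at 2.98 CPM on VGAT E16.5 replicate 2, against 0.987 to 1.23 CPM on the other 3 plates of that stage. Chrnb3 was at 1.66 CPM on VGAT P0.5 replicate 2, from 3 counts, against 0 to 0.291 CPM on the other 6 VGAT plates, and its share of thinned cells there was 1.03% against 0. The share of thinned cells with Chrna6 was 0.439% on VGAT E16.5 replicate 2, which is 1 cell, and 0 elsewhere, both among the 4 plates of E16.5 and among all 7. The share with Chrnb4 was 0.336% on VGAT E16.5 replicate 3, also 1 cell, and 0 on the other plates in both sets. Apart from Chrna5, these values rest on 1 to 3 counts.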

How the results depend on the processing

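The number of members called was 3 between populations (4 without the upper limit on counts per well or without VGAT P0.5 replicate 1), 2 with Slc6a3 and 0 in the interaction under every alternative run. The 0 calls among co-detected pairs say nothing about stability, since a single pair could not pass after adjustment over 6 pairs. Between stages, the 1 member called (Chrna5) became 0 with spliced counts, without the upper limit on counts per well, with the replicate block and without cells with a Pax7 count, an alternative chosen after seeing the data, and ranged from 0 to 1 with single plates left out. With the replicate number as a block, Chrna5 had a log2 difference of 1.80 (edgeR adjusted p = 0.199) and Chrnb2 one of −0.03. Between stages, deviations of plates with the same number had correlations of −0.03 to 0.08, and those with different numbers −0.13 to 0.09. No pairing by number was thus seen, but with so few plates this check could not exclude one. With that block, 3 members were called between populations. The 2 called pairs of a member and a marker became 1 with DESeq2, which gave Chrna5 in cells with Pax7 no adjusted p, 1 without the plate block, 5 without the filter on low counts, 4 at 2 or more marker counts, and 1 to 3 with single plates left out. Signs turned, none of them called, between populations with single plates left out, in Chrna3 (−0.50 without the E16.5 VGAT+Pitx3 plate, to 0.83), Chrna5 (−3.79 to 0.95) and Chrna7 (−0.10 to 1.03, both turned without the P0.5 VGAT+Pitx3 plate), and between stages in Chrnb2 without the low-count filter (−0.02), without the upper limit (−0.0038) and with single plates left out (−0.07 to 0.17, turned without E16.5 replicate 4 or P0.5 replicate 1). The causes were not tested. Of 527 recomputed values with a test, 480 kept direction and side of the threshold. The interaction could not be fitted without a VGAT+Pitx3 plate, and the Slc6a3 comparison with 1 plate left out gives values without a test. Depth limits members under 3 counts per plate.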
